A study of Arabidopsis thaliana with 45 samples.

Results

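Of the 37336 genes in the table, 10 genes of nitrogen remobilization were followed. These genes were chosen by locus identifier, with earlier results of these data known. They were the glutamine synthetase genes GLN1;1 (AT5G37600), GLN1;2 (AT1G66200), GLN1;3 (AT3G17820), GLN1;4 (AT5G16570) and GLN2 (AT5G35630), the glutamate dehydrogenase genes GDH1 (AT5G18170), GDH2 (AT5G07440) and GDH3 (AT3G03910), the asparagine synthetase gene ASN1 (AT3G47340) and the nitrate transporter gene NRT1.7 (AT1G69870). All 10 were found, and all 10 were among the 23493 genes with a value of at least 10 in at least 3 libraries, which were tested. Polyadenylated RNA of first true leaves of Arabidopsis thaliana, Columbia accession (Col-0), was sequenced in 3 series of 5 days with 3 libraries per group. The first series was a line labelled tcx5/6 in that background, grown in long days (16 h of light, 8 h of dark) and sampled on 5 days (D13, D18, D23, D30, D45). The second was Col-0 in long days, with D40 in place of D45. The third was Col-0 in short days (8 h of light, 16 h of dark), on the same 5 days as long-day Col-0. The labels write the day in DAG without spelling it out, and give no alleles for tcx5/6, no harvest time and no account of what the 3 libraries of a group were. The p-values therefore measure only the spread between libraries, which may be technical.

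An ageing leaf breaks down its chloroplast proteins and exports the nitrogen, mostly as amino acids, in the phloem. The plastid glutamine synthetase encoded by GLN2 recaptures ammonium from photorespiration and nitrate reduction in green cells, whereas the cytosolic GLN1 enzymes make glutamine for transport. Glutamate dehydrogenase releases ammonium from glutamate in mitochondria, asparagine synthetase moves the amide nitrogen of glutamine onto aspartate to give the transport amide asparagine, and NRT1.7 is a plasma membrane transporter that loads nitrate into the phloem of old leaves. TCX5 and TCX6, the genes named in the mutant line, encode CXC-domain proteins of the DREAM complex, a repressor of cell cycle genes.

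Each library held 16824317 to 40252818 reads in genes. The labels were read against marker genes first. TCX5 ranged from 231 to 522 in tcx5/6-labelled libraries and from 271 to 525 in long-day Col-0, so these series overlapped. In short-day-labelled libraries it was lower, at 54.1 to 216. TCX6 ranged from 0 to 142 in tcx5/6-labelled, from 15.7 to 418 in long-day Col-0 and from 219 to 2200.0 in short-day-labelled libraries. The florigen gene FT, a long-day target, had 3 or more reads in 2 of 15 tcx5/6-labelled, 14 of 15 long-day and 11 of 15 short-day-labelled libraries. These values do not follow the labels in every respect, so the tcx5/6 and short-day series are called by their labels throughout, and each direction drawn between series rests on them. Within short-day-labelled groups the 3 libraries lay close together, and their spread exceeded counting noise by a factor that hardly grew with read count (median of 13.0 for genes with 20 to 100 reads at D40, and 13.9 for genes with over 1000 reads, against 8.81 and 114 in long-day Col-0 at D40).

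Markers of senescence and of 4 leaf cell types were summed within each library. The summed level of 3 senescence genes (SAG12, NAP and ORE1) was 1443 to 4522 in tcx5/6-labelled libraries at D45, 144355 to 291679 in long-day Col-0 at D40 and 192939 to 197965 in short-day-labelled libraries at D40, against at most 49.9 in any D13 library. The summed level of 3 mesophyll genes (RBCS1A, LHCB1.3 and RCA) was 119213 to 375289.9 in tcx5/6-labelled libraries at D45, against 1215196 to 1336148 at D13. It was 22074 to 123597 at D40 in long-day Col-0, against 2078559 to 2130588 at D13, and 246736 to 261185 at D40 under the short-day label, against 1125472 to 1155352 at D13, without overlap in any series. The 3 xylem genes summed to 22.6 to 78.0 in tcx5/6-labelled libraries at D45, against 990.5 to 1234 at D13, to 10.8 to 74.8 in long-day Col-0 at D40, against 1939 to 2167 at D13, and to 0 to 56.2 under the short-day label at D40, against 706 to 925 at D13. The 3 guard cell genes summed to 1033 to 1757 in tcx5/6-labelled libraries at D45, against 2163 to 2271 at D13, and to 5320.1 to 6918 in long-day Col-0 at D40, against 1895 to 2378 at D13. Under the short-day label they summed to 1509 to 1914 at D40, against 1774 to 1861 at D13. In each Col-0 series 1 guard cell gene was called higher and 2 lower. The part of these markers in the last-day changes was not tested. In bulk leaves, fewer cells of a type and less RNA per cell cannot be told apart. The 5 phloem genes summed to 8108 to 9169 in tcx5/6-labelled, 23945 to 28144 in long-day and 8076 to 8314 in short-day-labelled libraries at D13. Their sums were higher at D45 in tcx5/6-labelled libraries (18261 to 22564) and at D40 under the short-day label (12905 to 14028). In long-day Col-0 they were lower at D40 (20117 to 22264). The 5 genes did not all move with their sum. In the tcx5/6-labelled series 4 were called higher and 1 lower, in long-day Col-0 1 higher and 2 lower. Under the short-day label 2 were called higher and 1 lower. The part of the phloem markers in the last-day changes was not tested either.

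Between D13 and the last day, the cytosolic glutamine synthetase genes and NRT1.7 rose and GLN2 fell in all 3 series, while GDH1, GDH3 and ASN1 moved differently between series. Values are read counts divided by a size factor per library, and changes are log2 differences of value + 1 with their SE from limma, called at an adjusted p under 0.05 over all genes tested. Between the last day and D13 in the tcx5/6-labelled series, 7 of the 10 genes were called higher and 2 lower, where 30.1% of all genes tested were called higher and 33.9% lower (64.0% in all). In long-day Col-0, 7 were higher and 3 lower (34.0% and 35.8% of all genes tested, 69.8% in all). Under the short-day label, 8 were higher and 1 lower (34.0% and 36.5%, 70.5% in all). With most genes of the leaf called, a call by itself says little, and the sizes of the changes are given below. The median change of the 10 genes was 1.39 in the tcx5/6-labelled series, 2.42 in long days and 1.68 under the short-day label, against medians of -0.03, -0.01 and -0.06 over all genes. The comparisons of age between series, of day length and of genotype share libraries with these, and their values are given side by side.

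**Figure D1:**
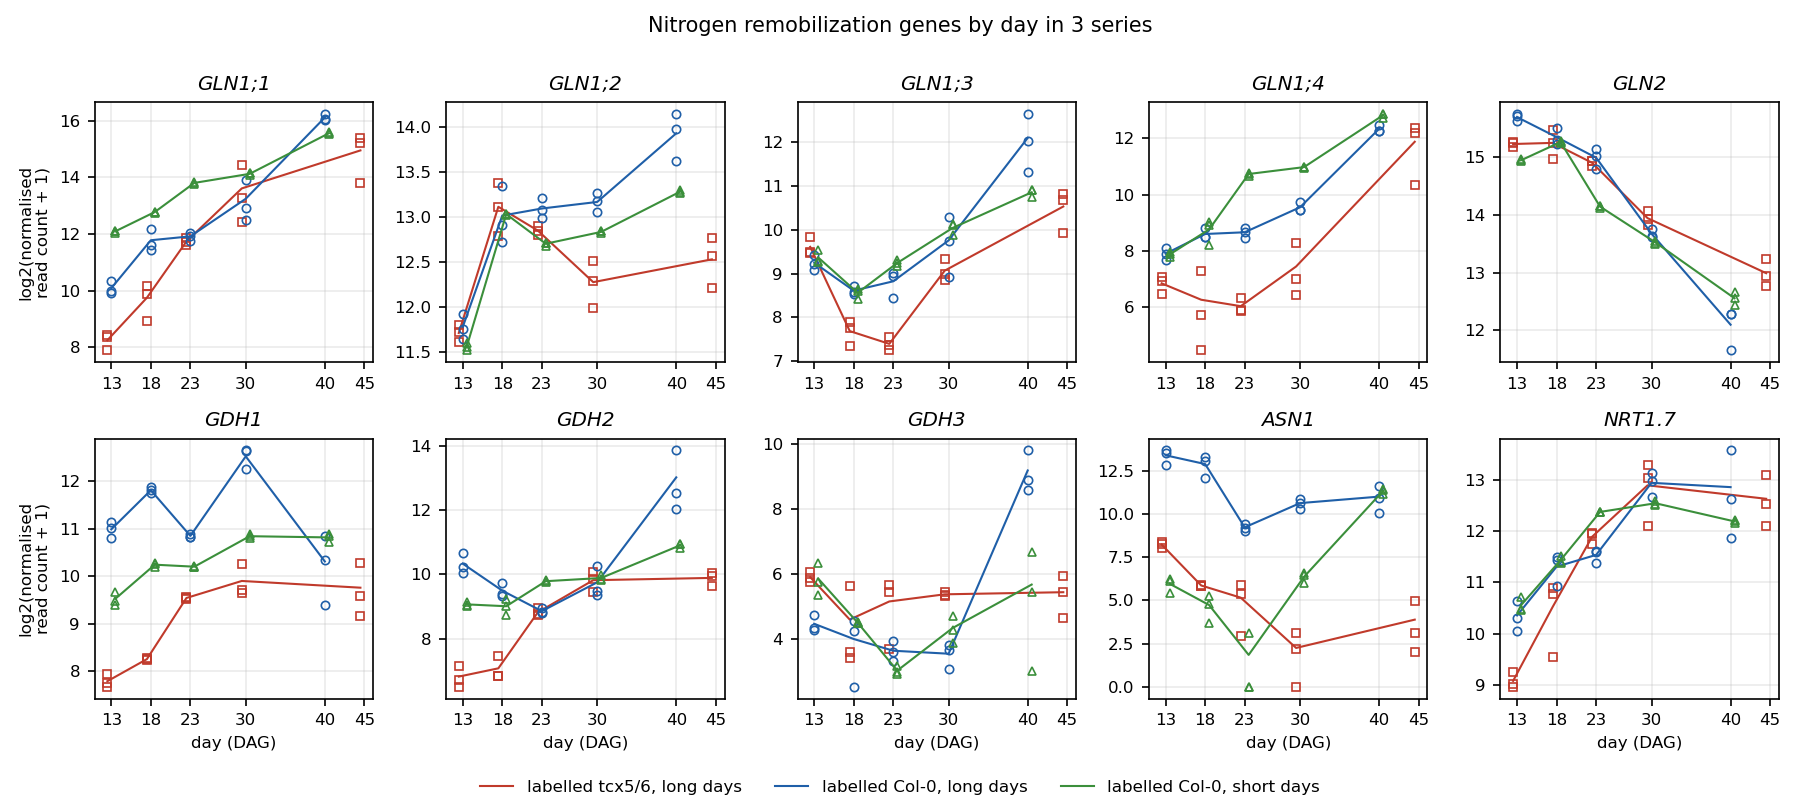
Log2 of normalised read count + 1 (vertical axis) for each of the 10 genes by day in DAG (horizontal axis). Each symbol is 1 library and each line joins the log2 of the group means + 1 (n = 3) in tcx5/6-labelled leaves (squares), long-day Col-0 (circles) and short-day-labelled Col-0 (triangles). GLN1;1 climbs in all 3 series, GLN2 declines, and ASN1 is far apart between series at D13.

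GLN1;1, a cytosolic isoform, reached the highest level per kb of exon of the 4 GLN1 genes. In tcx5/6-labelled leaves it had 236, 342 and 327 at D13, 1156, 482 and 935 at D18, 3388, 3678 and 3159 at D23, 9931, 22205 and 5434 at D30 and 38351, 42576 and 14429 at D45. In long-day Col-0 it had 962, 1004 and 1286 at D13, 4637, 2771 and 3134 at D18, 4214, 3457 and 3931 at D23, 15565, 5804 and 7784 at D30 and 77599, 67228 and 68956 at D40. Short-day-labelled libraries held 4242, 4446 and 4421 at D13, 6926, 7107 and 7025 at D18, 14376, 14652 and 13974 at D23, 17384, 18200.2 and 18129 at D30 and 48347, 47133 and 49518 at D40. The D13 and last-day libraries did not overlap in any series, and at D13 every short-day-labelled library lay above every library of the other 2 series. The last day over D13 gave a log2 difference of 6.58 ± 0.35 (adjusted p = 3.8e-18) in the tcx5/6-labelled series. It gave 6.05 ± 0.35 (adjusted p = 1.9e-17) in long-day Col-0 and 3.47 ± 0.35 (adjusted p = 6e-11) under the short-day label. Over the 15 groups the highest mean was 71261 ± 5556 in long-day Col-0 at D40 and the lowest 302 ± 57.6 in tcx5/6-labelled leaves at D13 (SD, n = 3), a 236-fold span. Of the 14 pairs of neighbours in that order of levels, 7 had overlapping libraries. Long-day Col-0 was lower than short-day-labelled Col-0 at D13 (-2.02 ± 0.35, adjusted p = 1.2e-05). At D40 it was not called different (0.56 ± 0.35, adjusted p = 0.18), but was called after quantile normalisation (0.95, adjusted p = 0.039). The rise was larger in long days than under the short-day label by 2.58 ± 0.49 (adjusted p = 4.8e-05).

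GLN1;4, also cytosolic, rose from low levels. It had 4709.8, 5264 and 1309 in tcx5/6-labelled leaves at D45, against 135, 87.2 and 122 at D13. Long-day Col-0 had 5688, 4949 and 4884 at D40, against 236, 276 and 204 at D13. The short-day-labelled series had 7439.9, 6799.9 and 7442 at D40, against 218, 249 and 235 at D13. Last-day and D13 libraries did not overlap in any series, and the third tcx5/6-labelled D45 library lay well below the other 2. The log2 difference was 4.81 ± 0.43 (adjusted p = 3.4e-12) in the tcx5/6-labelled series, and 5.45 without that library. It was 4.44 ± 0.43 (adjusted p = 1.8e-11) in long-day Col-0 and 4.94 ± 0.43 (adjusted p = 1.6e-12) under the short-day label. The series differed in the days between. Group means were 115 at D13, 76.2 at D18, 65.0 at D23, 174 at D30 and 3761 at D45 in tcx5/6-labelled leaves. They were 239 at D13, 388 at D18, 405 at D23, 750.0 at D30 and 5174 at D40 in long-day Col-0, and 234 at D13, 435 at D18, 1701 at D23, 2015 at D30 and 7227 at D40 under the short-day label. At D23 the long-day libraries (355, 405 and 455) lay below all short-day-labelled libraries (1639, 1753 and 1711), with a log2 difference of -2.07 ± 0.43 (adjusted p = 0.00019). That call was lost when each short-day-labelled group was counted as 1 library (adjusted p = 0.052).

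GLN1;2 and GLN1;3 changed by less than GLN1;1 and GLN1;4 on the log2 scale in each series. GLN1;2 had 4721, 6048 and 6934 in tcx5/6-labelled leaves at D45, against 3368, 3122 and 3551 at D13. It had 16065, 18058 and 12577 in long-day Col-0 at D40, against 3188, 3446 and 3884 at D13, and 10080.1, 9926 and 9803 under the short-day label at D40, against 3105, 2931 and 2997 at D13. It was higher on the last day in every series, without overlap. The log2 difference was 0.80 ± 0.15 (adjusted p = 1.1e-05) in the tcx5/6-labelled series, 2.14 ± 0.15 (adjusted p = 2.4e-15) in long-day Col-0 and 1.72 ± 0.15 (adjusted p = 1.1e-12) under the short-day label. The first step, D18 over D13, was already called in all 3 series: 1.38 ± 0.15 in tcx5/6-labelled leaves, 1.22 ± 0.15 in long-day Col-0 and 1.47 ± 0.15 under the short-day label. The long-day step was not called when only the compared groups were fitted (adjusted p = 0.084). In tcx5/6-labelled leaves GLN1;2 then fell at D30 below its D23 level (-0.59 ± 0.15, adjusted p = 0.0025), a step not called after quantile normalisation (adjusted p = 0.076). Its D18 libraries in that series, with 8854, 10618 and 7058, all lay above its D45 libraries.

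GLN1;3 was lowest at D18 or D23 and highest on the last day in each series. Its group means were 779 at D13, 205 at D18, 168 at D23, 534 at D30 and 1473 at D45 in tcx5/6-labelled leaves. They were 606 at D13, 389.8 at D18, 452 at D23, 862 at D30 and 4353 at D40 in long-day Col-0, and 659 at D13, 377 at D18, 603 at D23, 1049.8 at D30 and 1844 at D40 under the short-day label. Its highest libraries were the 3 of long-day Col-0 at D40, with 6348, 4178 and 2533. The last day over D13 gave a log2 difference of 0.88 ± 0.25 (adjusted p = 0.0025) in the tcx5/6-labelled series, 2.75 ± 0.25 (adjusted p = 4.6e-12) in long-day Col-0 and 1.49 ± 0.25 (adjusted p = 2.7e-06) under the short-day label.

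GLN2, the plastid isoform, fell with age in each series. In tcx5/6-labelled leaves it had 38871, 37054 and 39618 at D13, 45841, 32175 and 39093 at D18, 31481, 29396 and 31259 at D23, 17285, 14550.4 and 15555 at D30 and 6985, 7839.7 and 9627 at D45. In long-day Col-0 it had 50710.3, 53687 and 55238 at D13, 38747, 46592 and 40197 at D18, 36269, 28585 and 33168 at D23, 12638, 12741 and 13944 at D30 and 3225, 4962 and 4972 at D40. Short-day-labelled libraries held 32009.6, 31242 and 31757 at D13, 39109.6, 39802 and 39396 at D18, 18287, 17772 and 18353 at D23, 11636, 11746 and 11991 at D30 and 6484, 5557 and 6042 at D40. Every last-day library lay below every D13 library of its series. The log2 difference was -2.25 ± 0.14 (adjusted p = 6.1e-16) in the tcx5/6-labelled series, -3.63 ± 0.14 (adjusted p = 7.7e-22) in long-day Col-0 and -2.40 ± 0.14 (adjusted p = 1.5e-16) under the short-day label. The fall was larger in long days than under the short-day label (-1.23 ± 0.20, adjusted p = 5.6e-06). Quantile normalisation moved the median of all genes in this contrast to 0.22, against 0 before it, and the GLN2 difference was then -0.20 (adjusted p = 0.53). The summed mesophyll markers were also lower on the last day in all 3 series, as given above, and their part in the result was not tested.

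Within each library the isoforms can be set against each other without any scaling between libraries. Per kb of exon, the 4 cytosolic genes took 13.2, 12.8 and 13.1% of all glutamine synthetase reads in tcx5/6-labelled leaves at D13, with means of 24.6 ± 5.36% at D18, 31.3 ± 1.37% at D23, 57.3 ± 13.4% at D30 and 85.6 ± 8.18% at D45 (SD, n = 3). In long-day Col-0 the share was 11.5 ± 0.523% at D13, 27.6 ± 6.05% at D18, 34.4 ± 1.1% at D23, 65.9 ± 6.95% at D30 and 96.6 ± 0.991% at D40. Short-day-labelled libraries gave 25.3 ± 0.357%, 34.5 ± 0.141%, 62.5 ± 0.753%, 75.7 ± 0.293% and 93.6 ± 0.382% on the same 5 days. The mean cytosolic share first exceeded that of GLN2 at D30 in tcx5/6-labelled and long-day leaves and at D23 under the short-day label. Last-day and D13 libraries did not overlap in any series, and an exact two-sided permutation test gave p = 0.1 for each, the smallest that 3 libraries against 3 allow. At D13 the share was 11.3, 11.1 and 12.1% in the long-day libraries, against 24.9, 25.5 and 25.5% in the short-day-labelled libraries, again without overlap (exact permutation p = 0.1). The family as a whole averaged 30575 reads per kb in tcx5/6-labelled leaves at D45, against 21076 at D13. It averaged 62067 at D40 in long-day Col-0, against 28621 at D13, and 44674 at D40 under the short-day label, against 20174 at D13.

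**Figure D2:**
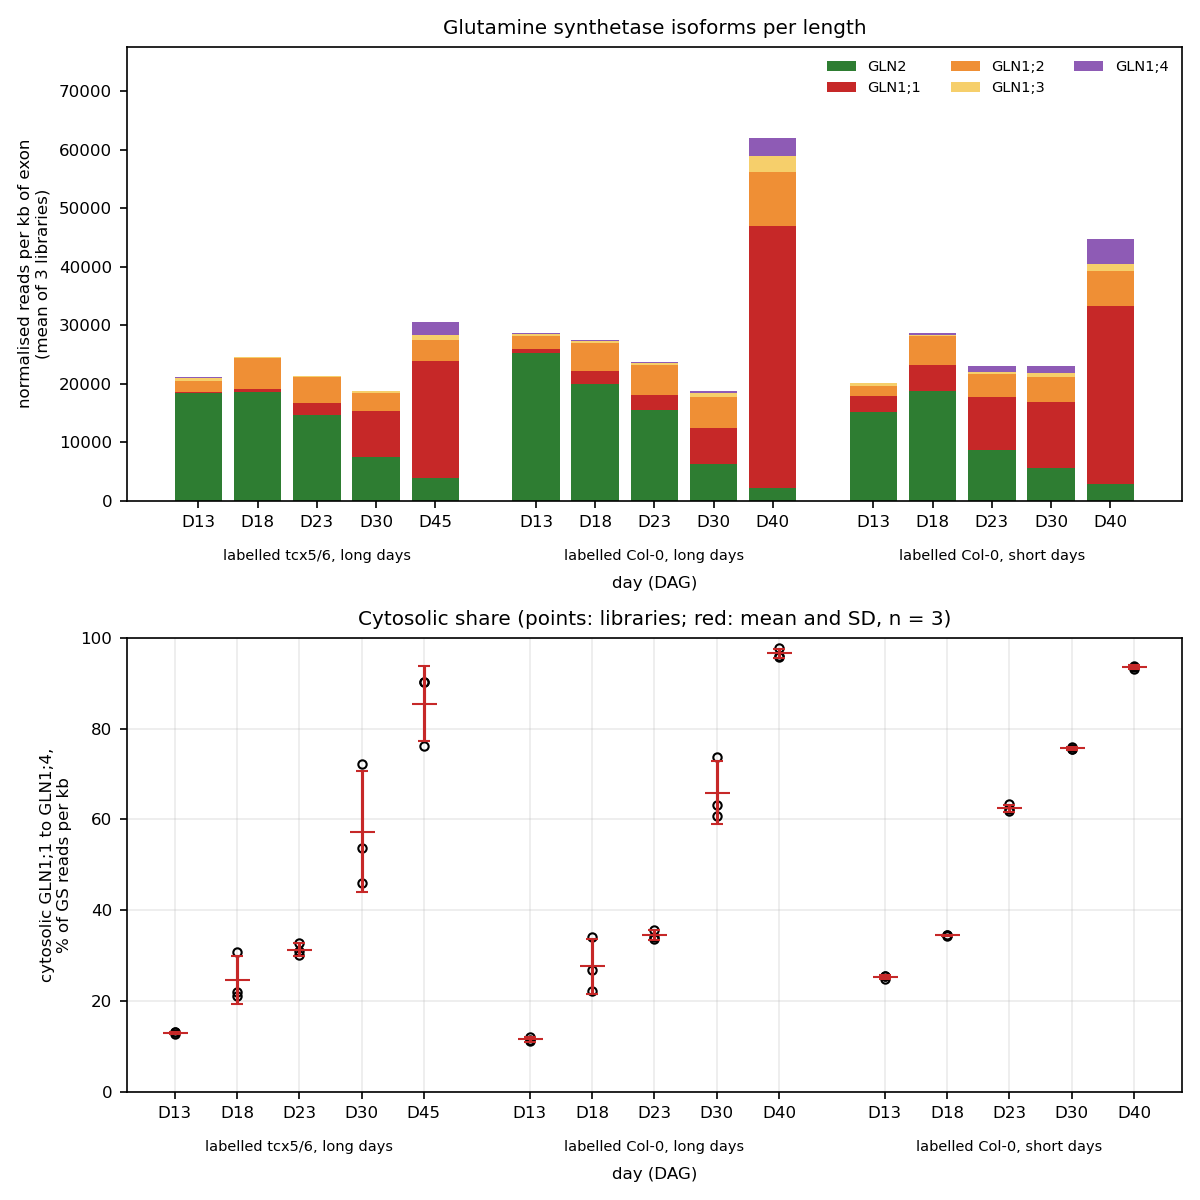
Glutamine synthetase genes by group (horizontal axis, day in DAG, tcx5/6-labelled, long-day and short-day-labelled series from left to right). The upper panel stacks mean normalised reads per kb of exon (3 libraries) and the lower panel shows the cytosolic share in percent for each library (points) with mean and SD (red), which reaches 96.6% in long-day Col-0 at D40.

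The 3 glutamate dehydrogenase genes did not move together. GDH1, which encodes the beta subunit, had 243, 203 and 214 at D13, 309, 304 and 300.3 at D18, 737, 751 and 746 at D23, 805, 1224 and 837 at D30 and 576, 771 and 1251 at D45 in tcx5/6-labelled leaves. In long-day Col-0 it had 1782, 2069 and 2246 at D13, 3759, 3588 and 3445 at D18, 1825, 1825 and 1886 at D23, 4888, 6392 and 6429.9 at D30 and 677, 1291 and 1843 at D40. Short-day-labelled libraries held 717, 677 and 812 at D13, 1247, 1164 and 1224 at D18, 1179, 1170.1 and 1182 at D23, 1788, 1892 and 1834 at D30 and 1838, 1896 and 1682 at D40. The long-day libraries stood above all others at D13 to D30 and peaked at D30, and the D40 libraries were spread from 677 to 1843 with the first lowest. The last day over D13 gave a log2 difference of 1.9 ± 0.21 (adjusted p = 8.4e-10) in the tcx5/6-labelled series and 1.3 ± 0.21 (adjusted p = 1.5e-06) under the short-day label. In long-day Col-0 GDH1 fell (-0.79 ± 0.21, adjusted p = 0.0013). The long-day fall was not called without the first D40 library (-0.39, adjusted p = 0.061) or when only the compared groups were fitted (adjusted p = 0.12). The long-day step to D40, a fall below D30, was -2.32 ± 0.21 (adjusted p = 2e-11). The age change in long days minus that under the short-day label was -2.08 ± 0.30 (adjusted p = 5.5e-07).

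GDH2, which encodes the alpha subunit, had 105, 90.0 and 142 at D13, 115, 114 and 174 at D18, 428, 492 and 436 at D23, 1074, 937 and 701 at D30 and 1064, 993 and 793 at D45 in tcx5/6-labelled leaves. In long-day Col-0 it had 1056, 1609.9 and 1210.0 at D13, 669, 849.9 and 645 at D18, 444, 455 and 492 at D23, 1221, 661 and 709 at D30 and 14813, 5894 and 4193 at D40. Short-day-labelled libraries held 529, 520.1 and 560.5 at D13, 428, 602 and 517 at D18, 880.4, 874 and 899.8 at D23, 1003, 915 and 928 at D30 and 1977, 1979 and 1802 at D40. It declined to D23 in long-day Col-0 and then climbed, and the first D40 library was the highest of the 3, the reverse of GDH1. The last day over D13 gave a log2 difference of 3.08 ± 0.26 (adjusted p = 1.5e-12) in the tcx5/6-labelled series, 2.49 ± 0.26 (adjusted p = 1.9e-10) in long-day Col-0 and 1.84 ± 0.26 (adjusted p = 1.6e-07) under the short-day label. The same first D40 library had the lowest summed mesophyll markers, 22074, and the highest NRT1.7. Per kb of exon, GDH1 made up 4.42, 17.8 and 30.0% of glutamate dehydrogenase reads in the 3 long-day libraries at D40, against 81.2, 91.2 and 90.6% at D30. The share was 49.8 ± 0.931% at D40 under the short-day label, against 67.3 ± 1.49% at D30. It was 47.4 ± 13.5% at D45 in tcx5/6-labelled leaves, against 52.0 ± 7.19% at D30 (SD, n = 3). Long-day Col-0 thus had GDH2 as the leading gene at D40, after GDH1 had led at D13 to D30.

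GDH3, which encodes the third of these subunits, was near the limit of measurement outside 1 group. It had 898, 473 and 385 in long-day Col-0 at D40, against 19.0, 18.3 and 25.7 at D13. It had 6.97, 42.1 and 100.8 under the short-day label at D40, against 52.5, 39.4 and 79.2 at D13, and in tcx5/6-labelled leaves 42.5, 60.2 and 24.1 at D45, against 65.9, 53.1 and 57.1 at D13. The 3 long-day D40 libraries lay above every other library, the highest of which had 100.8. The log2 difference was 4.66 ± 0.64 (adjusted p = 6e-08) in long-day Col-0. It was not called in the tcx5/6-labelled series (-0.55 ± 0.64, adjusted p = 0.47) or under the short-day label (-0.77 ± 0.64, adjusted p = 0.29). Without the first short-day-labelled D40 library the last of these was 0.25, and without the third it was -1.59 (adjusted p = 0.032). The age change in long days minus that under the short-day label was 5.42 ± 0.91 (adjusted p = 7.1e-06), or 4.41 and 6.24 without the first or the third short-day-labelled D40 library. GDH3 overlaps a gene on the opposite strand, AT3G03920, by 24 bases, and reads of the 2 genes there cannot be told apart without strand. The partner had 858, 834 and 972 in tcx5/6-labelled leaves at D45, against 2595, 2923 and 2290.4 at D13. It had 352, 507 and 753 in long-day Col-0 at D40, against 783, 691 and 779 at D13, and 857, 781 and 881 under the short-day label at D40, against 1736, 1895 and 1634 at D13. It exceeded GDH3 in mean level in every group but long-day Col-0 at D40, and its part in the GDH3 values was not tested.

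**Figure D3:**
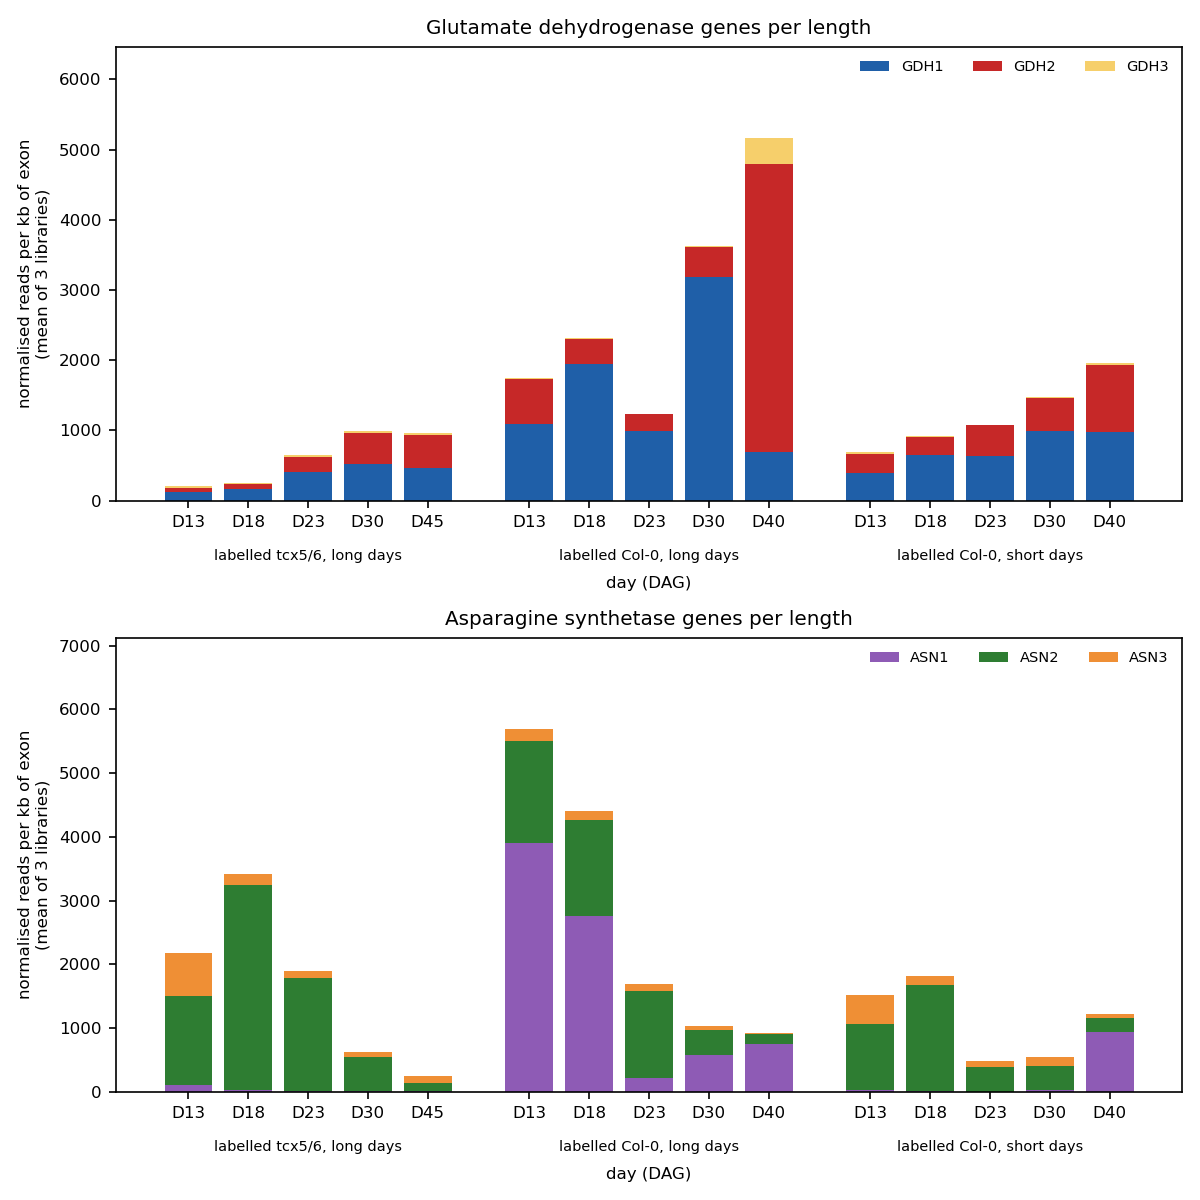
Mean normalised reads per kb of exon (vertical axes, 3 libraries per group) of the glutamate dehydrogenase genes (upper panel) and the asparagine synthetase genes (lower panel) by day in DAG, in tcx5/6-labelled, long-day and short-day-labelled series from left to right. GDH2 makes up most of the long-day D40 bar, and ASN1 makes up 67.6% of the long-day D13 bar but 5.01% of the tcx5/6-labelled one.

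ASN1, a gene known as dark-induced and sugar-repressed, differed widely between series at D13. In tcx5/6-labelled leaves it had 309, 329.9 and 256 at D13, 56.4, 56.0 and 58.8 at D18, 57.0, 6.77 and 40.1 at D23, 7.73, 3.5 and 0 at D30 and 3.09, 7.53 and 30.7 at D45. In long-day Col-0 it had 13016, 11989 and 7203 at D13, 4349, 9889.5 and 8433 at D18, 514, 592 and 683 at D23, 1245, 1617 and 1874 at D30 and 3188, 1905 and 1049 at D40. Short-day-labelled libraries held 74.2, 42.2 and 67.5 at D13, 37.6, 11.9 and 26.9 at D18, 0, 7.76 and 0 at D23, 62.4, 94.8 and 86.0 at D30 and 2742, 2686 and 2302 at D40. At D13, D18, D23 and D30 all 3 long-day libraries lay above all 6 libraries of the other 2 series, and at D40 the long-day and short-day-labelled libraries overlapped. The last day over D13 gave a log2 difference of -4.85 ± 0.71 (adjusted p = 2.5e-07) in the tcx5/6-labelled series and -2.49 ± 0.71 (adjusted p = 0.0022) in long-day Col-0, both falls. Under the short-day label ASN1 rose (5.41 ± 0.71, adjusted p = 2.5e-08). Leaving out the first or the third tcx5/6-labelled D45 library put its fall at -4.18 and -5.65. The age change in long days minus that under the short-day label was -7.89 ± 1.0 (adjusted p = 5.5e-08). Long-day Col-0 was higher than short-day-labelled Col-0 by 7.42 ± 0.71 (adjusted p = 2e-10) at D13, by 8.21 ± 0.71 (adjusted p = 4.7e-11) at D18, by 8.17 ± 0.71 at D23 and by 4.27 ± 0.71 (adjusted p = 9.3e-06) at D30. The D23 value rests on values near 0 under the short-day label. It was 6.45 with a pseudocount of 5, and 9.21 without the second short-day-labelled D23 library. At D40 the difference was -0.47 ± 0.71 (adjusted p = 0.61).

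Set against the other asparagine synthetase genes per kb of exon, ASN1 made up 5.01 ± 0.744% of the family in tcx5/6-labelled leaves at D13, 0.610 ± 0.0382% at D18, 0.649 ± 0.454% at D23, 0.229 ± 0.213% at D30 and 1.78 ± 1.4% at D45 (SD, n = 3). In long-day Col-0 its share was 67.6 ± 7.70% at D13, 60.9 ± 9.04% at D18, 12.8 ± 1.03% at D23, 55.8 ± 8.78% at D30 and 79.7 ± 16.1% at D40. Short-day-labelled libraries gave 1.48 ± 0.420%, 0.511 ± 0.263%, 0.192 ± 0.332%, 5.51 ± 1.29% and 76.7 ± 4.83% on the same 5 days. ASN2 averaged 46.7 ± 25.1% and ASN3 51.5% in tcx5/6-labelled leaves at D45, whereas ASN2 averaged 86.2 to 94.5% there at D18 to D30. ASN2 itself fell to the last day in all 3 series, with log2 differences of -3.85 ± 0.47 in the tcx5/6-labelled series, -4.20 ± 0.47 in long-day Col-0 and -2.35 ± 0.47 under the short-day label, all called.

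NRT1.7, the phloem-loading nitrate transporter gene, rose between D13 and the last day in each series. In tcx5/6-labelled leaves it had 515, 499 and 606 at D13, 1749, 746 and 1908 at D18, 3993, 3956 and 3431 at D23, 10056, 4387 and 8331 at D30 and 8678, 5927 and 4380.5 at D45. In long-day Col-0 it had 1061, 1270.3 and 1595 at D13, 2875, 1942 and 2771 at D18, 3123, 2669.9 and 3104 at D23, 9012, 6508 and 8031 at D30 and 12151, 6328 and 3744 at D40. Short-day-labelled libraries held 1668, 1411 and 1429.8 at D13, 2663, 2929.7 and 2691 at D18, 5286, 5305 and 5307 at D23, 5843, 6156 and 5877 at D30 and 4566, 4746 and 4670.5 at D40. Every last-day library lay above every D13 library of its series, and the long-day D40 libraries were spread from 3744 to 12151. The last day over D13 gave 3.5 ± 0.30 (adjusted p = 1.1e-12) in the tcx5/6-labelled series, 2.35 ± 0.30 (adjusted p = 9.3e-09) in long-day Col-0 and 1.64 ± 0.30 (adjusted p = 8.6e-06) under the short-day label. No step after D30 was called in any series (adjusted p = 0.64, 0.53 and 0.37), and the highest group mean was 7850.1 ± 1262 in long-day Col-0 at D30. Long days and the short-day label were not called different at D13 (-0.22 ± 0.30, adjusted p = 0.61) or D40 (0.50 ± 0.30, adjusted p = 0.16). The D40 difference was called without the third long-day D40 library (0.91, adjusted p = 0.011), after quantile normalisation (0.77, adjusted p = 0.02) and by DESeq2 (0.67, adjusted p = 0.046).

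**Figure D4:**
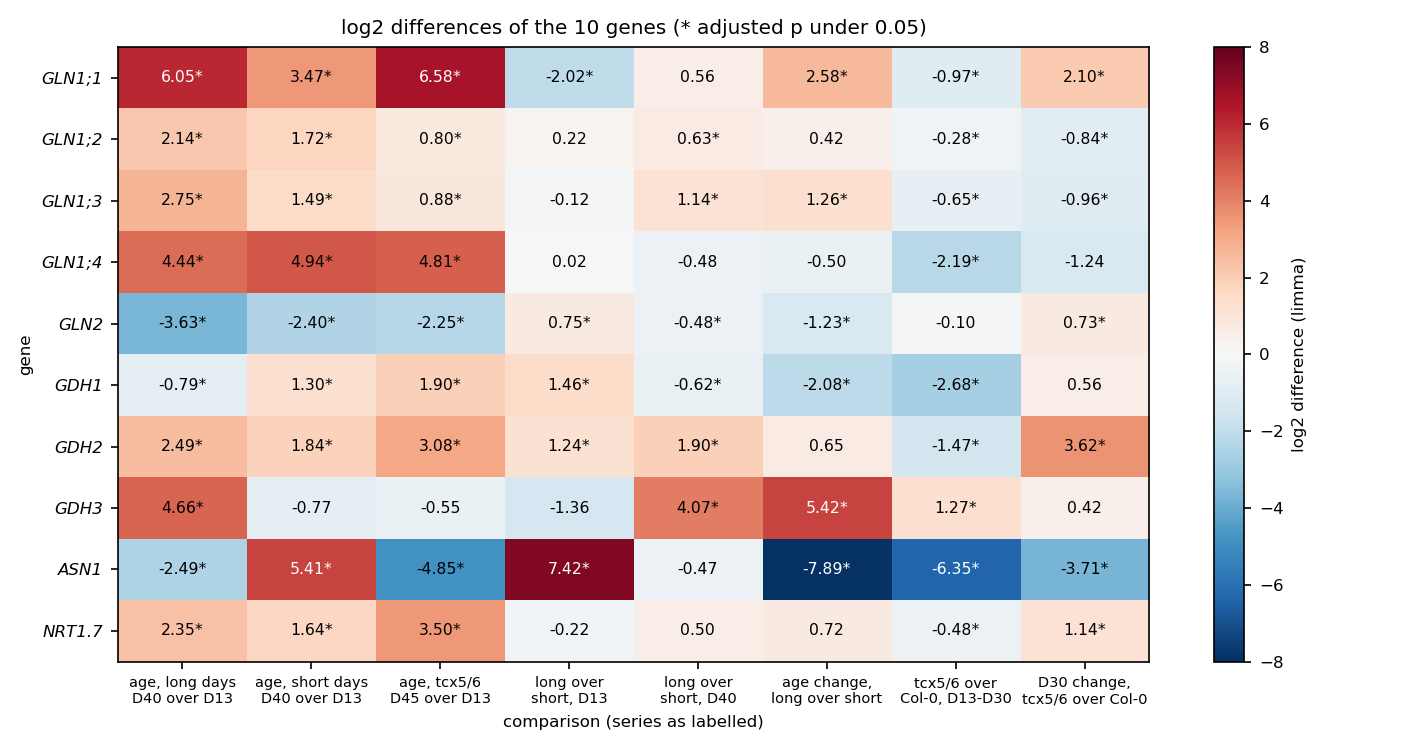
Log2 differences (colour and printed value) of the 10 genes (rows) in the 8 main comparisons (columns), with an asterisk for an adjusted p under 0.05 in limma. ASN1 has both extremes, 7.42 for long days over the short-day label at D13 and -7.89 for the difference of the age changes.

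Between day lengths, 4 of the 10 genes were called higher in long days at D13 and 1, GLN1;1, lower, where 19.5% of all genes tested were called higher and 20.6% lower (40.0% in all). At D40, 4 were higher and 2 lower (21.2% and 29.1%, 50.3% in all). Taken in either direction, these counts are close to the shares over all genes. The counts called higher lie above their shares, a difference that was not tested. At D13 long-day Col-0 was higher in ASN1, in GDH1 (1.46 ± 0.21, adjusted p = 7.6e-07), in GDH2 (1.24 ± 0.26, adjusted p = 0.00024) and in GLN2 (0.75 ± 0.14, adjusted p = 6.2e-05). For GLN2 the call was lost after quantile normalisation (adjusted p = 1), and the GDH2 call was lost when each short-day-labelled group was 1 library (adjusted p = 0.051). At D40 long-day Col-0 was higher in GDH3 (4.07 ± 0.64, adjusted p = 2.1e-06) and GDH2 (1.9 ± 0.26, adjusted p = 2.3e-07). The GDH3 difference was 3.05 and 4.89 without the first or the third short-day-labelled D40 library. GLN1;2 (0.63 ± 0.15) and GLN1;3 (1.14 ± 0.25) were also higher in long days, calls lost when only the compared groups were fitted (adjusted p = 0.067 and 0.069). GLN2 (-0.48 ± 0.14) and GDH1 (-0.62 ± 0.21) were lower, calls lost in the same way (adjusted p = 0.15 and 0.28). The last 2 were also lost without the first long-day D40 library (GLN2 -0.28, adjusted p = 0.084, and GDH1 -0.23, adjusted p = 0.34). Over all genes, 42.1% of the D40 calls were higher in long days, and 57.5% after quantile normalisation. For the difference of the age changes, 3 of the 10 genes were called higher and 3 lower (20.4% and 25.4% of all genes tested, 45.8% in all). Of all calls there 44.6% were higher, or 56.9% after quantile normalisation. Besides those described above, this contrast called GLN1;3 (1.26 ± 0.35, adjusted p = 0.0037), a call lost with each short-day-labelled group as 1 library (adjusted p = 0.13). GLN1;2, GDH2 and NRT1.7 did not pass in it, but each did without the third long-day D40 library, with 0.56, 1.04 and 1.13 (adjusted p = 0.026, 0.015 and 0.021). All 3 also passed after quantile normalisation, with 1.45 for GLN1;2, 0.97 for GDH2 and 1.21 for NRT1.7 (adjusted p = 9e-06, 0.018 and 0.011).

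Between genotypes, most of the 10 genes were lower in tcx5/6-labelled leaves than in long-day Col-0 in the mean over D13 to D30, though not all on each day. Over D13 to D30, 8 were called lower and 1, GDH3, higher, where 32.7% of all genes tested were called lower and 26.2% higher (58.8% in all). The mean difference was -6.35 ± 0.35 (adjusted p = 1.5e-17) for ASN1, -2.68 ± 0.11 (adjusted p = 8.6e-22) for GDH1, -2.19 ± 0.21 (adjusted p = 3.6e-11) for GLN1;4 and -1.47 ± 0.13 (adjusted p = 5e-12) for GDH2. It was -0.97 ± 0.17 (adjusted p = 9.9e-06) for GLN1;1, -0.65 ± 0.13 (adjusted p = 3.1e-05) for GLN1;3, -0.48 ± 0.15 (adjusted p = 0.0059) for NRT1.7 and -0.28 ± 0.07 (adjusted p = 0.0014) for GLN1;2, the last with -0.06 after quantile normalisation (adjusted p = 0.58). GLN2 did not pass (-0.10 ± 0.07, adjusted p = 0.25), and GDH3 was higher (1.27 ± 0.32, adjusted p = 0.00085). GDH3 averaged 58.7, 23.1, 34.5 and 40.4 in tcx5/6-labelled leaves at D13, D18, D23 and D30, against 21.0, 14.9, 11.4 and 10.6 in long-day Col-0. Its opposite-strand partner AT3G03920 was also higher on those days, with 2603, 646, 714 and 964 in tcx5/6-labelled leaves, against 751, 399, 306 and 469.7 in long-day Col-0, and the part of partner reads in the GDH3 call was not tested.

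Each day was also compared by itself. GDH1 was lower on all 4 days, with log2 differences of -3.20 ± 0.21 at D13, -3.56 ± 0.21 at D18, -1.31 ± 0.21 at D23 and -2.64 ± 0.21 at D30. ASN1 was also lower on each, with -5.13 ± 0.71 at D13, -6.94 ± 0.71 at D18, -4.49 ± 0.71 at D23 and -8.84 ± 0.71 at D30. The D23 value of ASN1 was -3.60 without the second tcx5/6-labelled D23 library, and its D30 value was -9.52 and -7.96 without the first or the third D30 library. GDH2 was lower at D13 (-3.51 ± 0.26, adjusted p = 2e-13) and at D18 (-2.43 ± 0.26, adjusted p = 1.2e-09), and not called at D23 (adjusted p = 0.96) or D30 (adjusted p = 0.82). GLN1;1 was also lower at D13 (-1.85 ± 0.35, adjusted p = 3.4e-05) and D18 (-2.09 ± 0.35, adjusted p = 5e-06) and not called at D23 (adjusted p = 0.77) or D30 (adjusted p = 0.63). NRT1.7 was lower at D13 (-1.26 ± 0.30, adjusted p = 0.00062) and D18 (-0.88 ± 0.30, adjusted p = 0.014), but the D18 call was lost without the second tcx5/6-labelled library (-0.45, adjusted p = 0.23), which had the lowest value of the 3. It was also lost without the first or the third long-day D18 library (adjusted p = 0.059 and 0.052). GLN1;4 was lower at D13 (-1.06 ± 0.43, adjusted p = 0.041), a call lost by edgeR on the recovered reads (adjusted p = 0.054), with no filter on low values (adjusted p = 0.054), after TMM scaling (adjusted p = 0.058) and with each short-day-labelled group as 1 library (adjusted p = 0.1). It was also lost without the second or the third tcx5/6-labelled D13 library or without any 1 long-day D13 library (adjusted p = 0.051 to 0.15). GLN1;4 was lower again at D18 (-2.77 ± 0.43, adjusted p = 1.4e-06), D23 (-2.63 ± 0.43) and D30 (-2.31 ± 0.43, adjusted p = 4.3e-05). Its D18 value was -2.09 and -3.5 without the first or the second tcx5/6-labelled library. GLN1;2 was called lower only at D30 (-0.90 ± 0.15, adjusted p = 5.9e-06), with -0.06 at D13, 0.10 at D18 and -0.24 at D23. GLN1;3 was called lower at D18 (-0.94 ± 0.25, adjusted p = 0.0021) and D23 (-1.41 ± 0.25, adjusted p = 5.5e-05). It was not called at D13 (0.36 ± 0.25) or D30 (-0.60 ± 0.25, adjusted p = 0.06). NRT1.7 was not called at D23 (adjusted p = 0.42) or D30 (adjusted p = 0.81). The summed phloem markers were also lower in tcx5/6-labelled leaves at D13, as given above, and at D18 were 5642 to 24606 (mean 17444), against 33263 to 40460.2 in long-day Col-0. They were lower there at D23 as well (24052 to 26448, against 35791 to 39597) and at D30 (20482 to 21731, against 26738 to 38858). Their part in the result was not tested. The second tcx5/6-labelled D18 library had 18702 genes with a read, the fewest of all libraries. The first and the third of that group had 21273 and 21177.

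The change from D13 to D30 differed between genotypes for 7 of the 10 genes, 4 with a positive and 3 with a negative difference (13.3% and 10.9% of all genes tested, 24.2% in all). The difference, tcx5/6-labelled minus long-day Col-0, was positive for GDH2 (3.62 ± 0.37, adjusted p = 2.2e-09), GLN1;1 (2.10 ± 0.49, adjusted p = 0.0013) and NRT1.7 (1.14 ± 0.42, adjusted p = 0.043). It was negative for ASN1 (-3.71 ± 1.0, adjusted p = 0.0054), GLN1;2 (-0.84 ± 0.21, adjusted p = 0.0024) and GLN1;3 (-0.96 ± 0.35, adjusted p = 0.044). Mean GDH2 rose from 112 at D13 to 904 at D30 in tcx5/6-labelled leaves and fell from 1292 to 864 in long-day Col-0. Mean GLN1;3 went the other way, from 779 to 534 in tcx5/6-labelled leaves and from 606 to 862 in long-day Col-0. GLN2 fell less in the tcx5/6-labelled series (0.73 ± 0.20, adjusted p = 0.0066), which quantile normalisation put at 0.37 (adjusted p = 0.29). The NRT1.7 call was lost without the second or the third long-day D13 or D30 library, the first or second tcx5/6-labelled D13 library, or the first or the third tcx5/6-labelled D30 library. Without the first tcx5/6-labelled D30 library it was 0.90 (adjusted p = 0.14). That call was also lost with no filter on low values (adjusted p = 0.056) and after TMM scaling (adjusted p = 0.061). It was lost too with each short-day-labelled group as 1 library. The GLN1;3 call was lost without the second or the third long-day D13 library, the first or the third long-day D30 library, any tcx5/6-labelled D13 library, or the first or second tcx5/6-labelled D30 library. Without the first long-day D30 library it was -0.64 (adjusted p = 0.2). That call was also lost with no filter on low values (adjusted p = 0.057) and when only the compared groups were fitted (adjusted p = 0.102). It was lost too with each short-day-labelled group as 1 library. ASN1 was -4.39 and -2.83 without the first or the third tcx5/6-labelled D30 library. With a pseudocount of 5 it was -2.47 (adjusted p = 0.0065), as its tcx5/6-labelled D30 values lie near 0. GLN1;4 did not pass (-1.24 ± 0.60, adjusted p = 0.14), but did without the second tcx5/6-labelled D30 library (-1.76, adjusted p = 0.028). No Col-0 library of D45 was analysed here, so the last days were not compared between genotypes. Over all days of each series, the senescence marker SAG12 reached at most 141 in tcx5/6-labelled libraries, against 246622 in long-day Col-0. NAP reached at most 2491 against 33405, and ORE1 at most 1890 against 11651, in the same order. These maxima are from series that ended on different days.

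Between successive days, 22 of 40 gene-by-step comparisons were called in the tcx5/6-labelled series (27.9% of all genes and steps), 21 of 40 in long-day Col-0 (28.7%) and 22 of 40 under the short-day label (31.3%). By day, 23 of 40 comparisons between genotypes were called (37.7%) and 26 of 50 between day lengths (38.8%). In the last step of long-day Col-0, D40 over D30 gave a log2 difference of 5.60 ± 0.64 for GDH3, 3.11 ± 0.26 for GDH2 and 3.0 ± 0.35 for GLN1;1. It gave 2.79 ± 0.43 for GLN1;4, 2.34 ± 0.25 for GLN1;3 and 0.75 ± 0.15 for GLN1;2, and -2.32 ± 0.21 for GDH1 and -1.61 ± 0.14 for GLN2, with every adjusted p at or under 4.9e-05. ASN1 and NRT1.7 were not called in that step.

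Over the 15 group means on the log2 scale, the 2 genes with the most similar pattern were found for each of the 10 among 8191 genes that have a symbol and a group mean of at least 100. GLN2 was closest to HCF101 and PSAH2, genes of photosystem I assembly and structure (Pearson r = 0.99 for each). GLN1;1 was closest to EULS3 and VSR7 (0.98 for each), and NRT1.7 to IBH1 (0.97) and UBL5 (0.96). GDH2 was closest to PLL4 (0.96) and FQR1 (0.95), and GLN1;4 to ETR2, an ethylene receptor gene, and RL2 (0.94 for each). GLN1;3 was closest to DML2, a DNA demethylase gene (0.94), and SYN4 (0.93), GDH1 to BT4 (0.93) and BZS1 (0.92), and ASN1 to ERD5, the proline dehydrogenase gene (0.93), and bZIP1 (0.92). GDH3 was closest to OCT1 (0.93) and PHF1 (0.90), and GLN1;2 to SNRK2.10 (0.90) and CIPK17 (0.89). Among the 10 themselves, GLN1;1 had r of 0.88 with NRT1.7, 0.85 with GLN1;4 and -0.88 with GLN2, whereas ASN1 and NRT1.7 had -0.21. These coefficients describe 15 groups that share ages and scaling, and are given without a test.

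The 3 lists of other nitrogen genes were read in the same fit, and were also chosen with earlier results of these data known. Of 20 nitrogen transport genes, 18 were tested, and at the last day over D13 14 were called higher and 3 lower in the tcx5/6-labelled series, 12 higher and 3 lower in long-day Col-0, and 14 higher and 3 lower under the short-day label (median log2 difference 2.71, 2.41 and 3.0). Over all genes tested, the called shares in these comparisons were 30.1% higher and 33.9% lower, 34.0% and 35.8%, and 34.0% and 36.5%, in the same order of series. AAP4, an amino acid permease gene, rose by 6.67 ± 0.39 (adjusted p = 4.6e-17) in the tcx5/6-labelled series, 5.56 ± 0.39 in long-day Col-0 and 6.51 ± 0.39 under the short-day label. NRT1.5, a nitrate transporter gene known from root xylem loading, rose by 4.58 ± 0.32 in the tcx5/6-labelled series, 6.37 ± 0.32 in long-day Col-0 and 5.01 ± 0.32 (adjusted p = 6e-16) under the short-day label, and AAP5 by 2.62 ± 0.19 in the tcx5/6-labelled series and 3.03 ± 0.19 under the short-day label. NRT1.11, which moves nitrate between xylem and phloem in expanded leaves, fell by 10.97 ± 0.42 in long-day Col-0. In tcx5/6-labelled leaves, 15 of the 18 were called lower than in long-day Col-0 over D13 to D30 and 3 were not called, where 32.7% of all genes tested were called lower. All 5 phloem marker genes were called lower in that comparison too, and their part in it was not tested. Of the 18 transport genes, named below are those with the strongest calls. The 3 with the smallest adjusted p were NRT1.12 (-2.77 ± 0.14, adjusted p = 1.4e-18), NRT1.11 (-2.95 ± 0.21, adjusted p = 1.1e-14) and NLA (-1.72 ± 0.14, adjusted p = 2.2e-13), the gene of a ubiquitin ligase that acts on NRT1.7 protein.

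All 20 genes of amino acid interconversion were tested, with 12 higher and 4 lower at the last day in the tcx5/6-labelled series, 9 higher and 6 lower in long-day Col-0 and 10 higher and 5 lower under the short-day label. In total 16, 15 and 15 of the 20 were called, close to the 64.0%, 69.8% and 70.5% of all genes tested. PPDK, whose enzyme makes phosphoenolpyruvate from pyruvate, rose by 7.76 ± 0.26 (adjusted p = 2.3e-23) in the tcx5/6-labelled series, 5.06 ± 0.26 in long-day Col-0 and 5.58 ± 0.26 under the short-day label. ASP4, an aspartate aminotransferase gene, rose by 6.43 ± 0.35 in the tcx5/6-labelled series, and its D30 change was larger there than in long-day Col-0 by 3.74 ± 0.49 (adjusted p = 3e-07). GAD2, a glutamate decarboxylase gene, fell in long-day Col-0 (-2.35 ± 0.17, adjusted p = 8.4e-15), and its age change differed from that under the short-day label by -2.48 ± 0.24 (adjusted p = 1.3e-10). GGAT1, a photorespiratory aminotransferase gene, differed in the same contrast by -2.64 ± 0.22 (adjusted p = 5.6e-12).

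Of 7 genes of nitrate reduction and ammonium assimilation, 6 were tested. At the last day 1 was higher and 3 lower in the tcx5/6-labelled series (64.0% of all genes tested were called), and 3 were higher and 2 lower in each Col-0 series (69.8% in long days and 70.5% under the short-day label). GLU2, a ferredoxin-dependent glutamate synthase gene, rose by 2.58 ± 0.20 in the tcx5/6-labelled series, 3.36 ± 0.20 (adjusted p = 6.7e-17) in long-day Col-0 and 2.37 ± 0.20 under the short-day label. Its photorespiratory relative GLU1 fell (-1.18 ± 0.26 in the tcx5/6-labelled series and -3.29 ± 0.26 in long-day Col-0). NIR1, the nitrite reductase gene, fell (-2.15 ± 0.19 in the tcx5/6-labelled series and -1.60 ± 0.19 under the short-day label). Over D13 to D30 it was higher in tcx5/6-labelled leaves than in long-day Col-0 by 0.66 ± 0.09 (adjusted p = 1.4e-07).

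**Figure D5:**
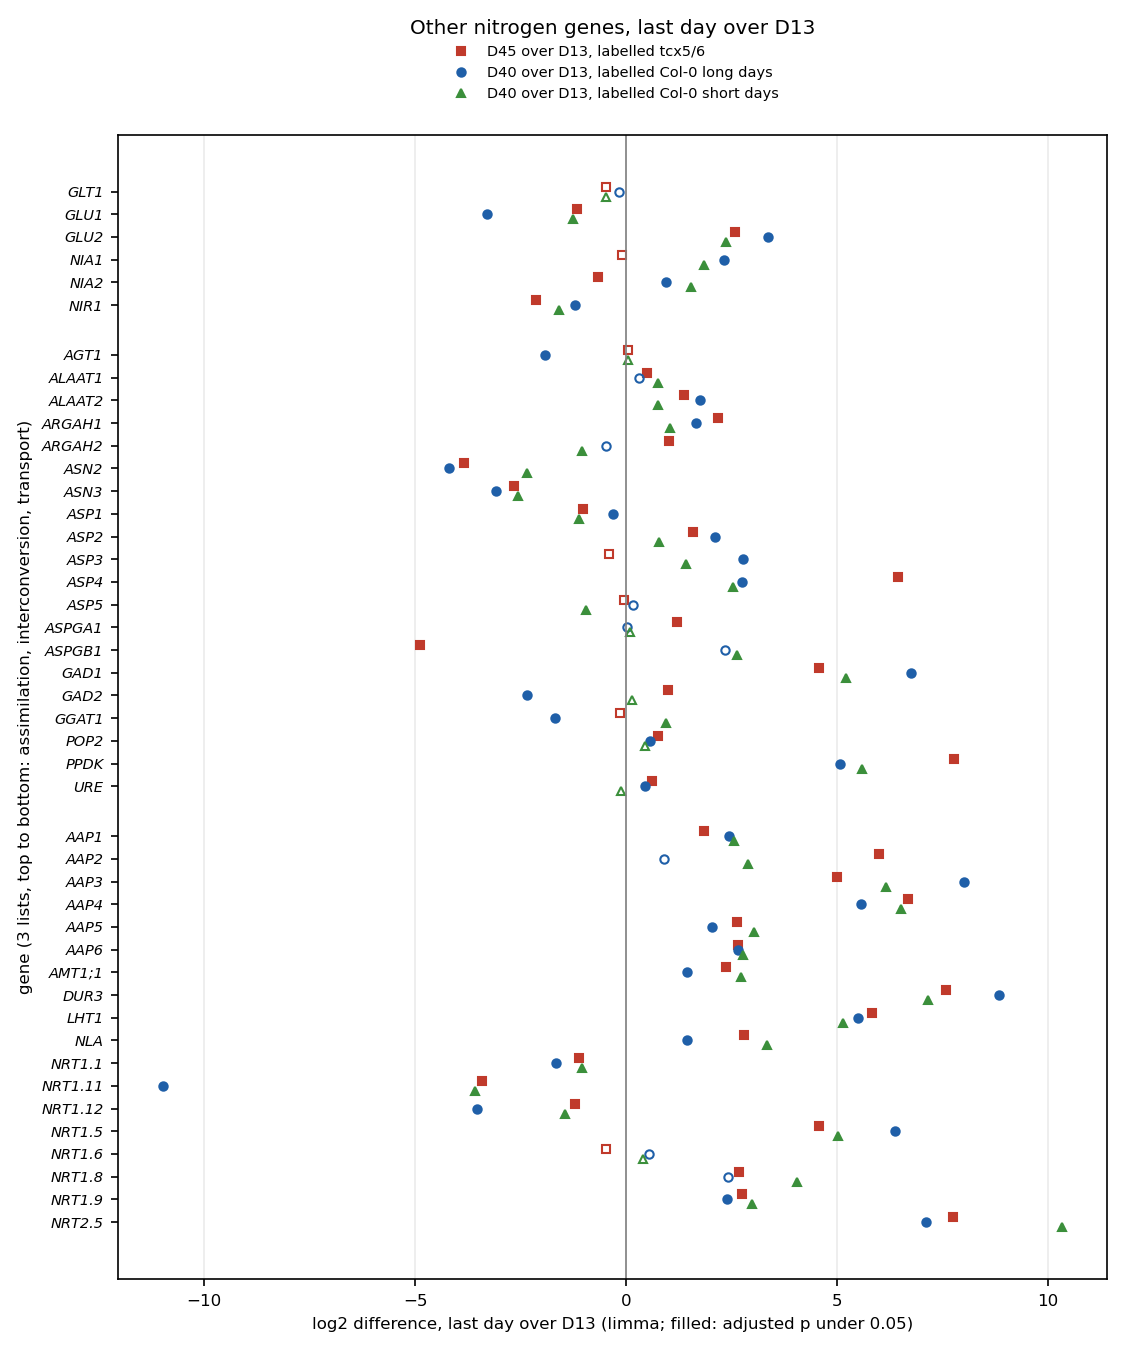
Log2 difference of the last day over D13 (horizontal axis) for each tested gene of the 3 other nitrogen lists (rows) in tcx5/6-labelled leaves (squares), long-day Col-0 (circles) and short-day-labelled Col-0 (triangles). Filled symbols have an adjusted p under 0.05 in limma, and most transport genes lie to the right of 0.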

How the data were processed

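Polyadenylated RNA of 45 libraries was sequenced by a non-stranded protocol, per the labels. The submitters' processing notes name STAR 2.7.1a, HTSeq 2.0, DESeq2 1.40.1, Trim Galore 0.6.6 and cutadapt. No genome build is given in the sources used here, so no coordinates or sequences are printed. The deposited values are a normalised signal: read counts per gene divided by 1 size factor per library. Whole reads were recovered for 100% of values within 0.01. The 5 entries that name no gene were left out; reads outside genes were 46.0 to 48.2% and ambiguous reads 0.111 to 0.238% of those counted.

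limma 3.58.1 in R 4.3.3 was fitted to log2(value + 1) over all 15 groups with a trend of variance on mean and 30 residual degrees of freedom. It covered 23493 genes with at least 10 in at least 3 libraries, and p was adjusted by Benjamini-Hochberg within each comparison. All adjusted p in the text are from it unless another tool is named. The script was tested on simulated data. Exon lengths, names and overlaps came from the RefSeq annotation TAIR10.1, in which no member shares a window of 75 exonic bases with another place in the genome. Alternatives were edgeR 4.0.16 and DESeq2 1.42.0 on the recovered reads, other scaling, pseudocounts, filters and samples, and leaving out each library. Genes were named by rule: the 10 members, up to 3 called genes of each list per comparison by smallest adjusted p, and the 2 most similar genes. ASN2 was added after its values were seen. The members and lists were chosen with earlier results of these data known.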

Additional observations from a re-analysis of the deposited data

Results flagged for a closer look

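Differences between age changes, each tested by its own interaction term in limma, passed 13 times. For the change to D40 from D13 in long days minus that under the short-day label, GLN1;1 differed by 2.58 and GLN1;3 by 1.26 on the log2 scale, both larger in long days, and GDH3 by 5.42. In the same contrast GLN2 differed by -1.23, GDH1 by -2.08 and ASN1 by -7.89. For the change to D30 from D13 in the tcx5/6-labelled series minus that in long-day Col-0, GDH2 differed by 3.62, GLN1;1 by 2.10, NRT1.7 by 1.14 and GLN2 by 0.73. In that contrast ASN1 differed by -3.71, GLN1;3 by -0.96 and GLN1;2 by -0.84. In the first contrast 45.8% of all genes tested were called, and 24.2% in the second. Causes were not tested.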

How the results depend on the processing

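The 183 results on single genes of the 10 (members) were each refitted under the alternative settings. Over the processing settings, 1906 refits kept direction and side of the threshold, 94 lost a call, 11 gained a call and 2 changed sign. With 1 library left out, 1289 refits kept both, 100 lost a call, 6 gained a call and 3 changed sign. These are counts of refits, and many single results lost or gained a call under at least 1 setting. The cause of a change was not tested. With each short-day-labelled group as 1 library, which removes their replicates, all genes called numbered 10548 against 16563 for short-day age, 4402 against 9403 for long over short days at D13, 7069 against 11820 at D40, 5260 against 10755 for the age change, 4372 against 29370 for the short-day steps and 20531 against 45628 for long over short days by day. Members called were then 3 against 6 at D40, 4 against 22 for the short-day steps and 14 against 26 by day. With only the compared groups fitted, members called were 3 against 6 and all genes 5874 against 11820 for long over short days at D40, members 34 against 22 for the short-day steps, and members 10 against 22 and all genes 12711 against 26233 for the tcx5/6 steps.

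Quantile normalisation turned GLN1;2 for long over short days at D13 (-0.19) and GLN2 for tcx5/6 over Col-0 (0.13), neither called before or after. It moved the median log2 difference of all genes to 0.09 against -0.01 for long-day age, 0.15 against -0.07 for long over short days at D40 and 0.05 against -0.07 for tcx5/6 over Col-0. Without exon lengths, an alternative chosen after seeing the data, the cytosolic share was 10.5% in tcx5/6 at D13, 95.6% at D40 and 9.26% at D13 in long days, and 91.8% at D40 and 20.7% at D13 under the short-day label, against 13.0, 96.6, 11.5, 93.6 and 25.3% with them. Leaving out 1 library each gave -1.59 to 0.25 for GDH3 short-day age and -0.092 to 0.13 for GLN1;4 at D13 between day lengths.

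Deviations from the group means of libraries with the same replicate number had correlations of -0.088 to 0.135, so the numbers do not pair them. A fit with the replicate block called 23 against 22 members for the tcx5/6 steps, and as many members as without it in the other comparisons. ASN1 and GDH3 lay near 0 in many groups, where few reads limit their log2 differences.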
